A study of Mus musculus with 6 samples.

Results

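The 9 genes described here carry the Hedgehog signal from the cell surface to the nucleus. They were chosen by name as rows of the deposited expression table, and all 9 of the listed genes were among its 13069 genes. They are the receptor gene Ptch1, the co-receptor genes Boc, Cdon and Gas1, the transducer Smo, the cytoplasmic inhibitor Sufu and the transcription factor genes Gli1, Gli2 and Gli3. RNA had been sequenced from neurosphere cultures of mouse glioblastoma, with 3 libraries of the genotype labelled ATRX knockout (ATRX KO) and 3 of ATRX wild type (ATRX WT). All tumours, per the labels, were induced in neonatal C57BL/6 or FVB mice with transposon plasmids that knock down p53 with a hairpin and overexpress NRAS. An ATRX hairpin was present or absent, and the cultures were kept in neural stem-cell medium with the growth factors FGF and EGF and the supplements B-27 and N-2. The labels name both a knockout and a hairpin for ATRX, and the strain of each culture is not given. Each genotype carries a single line code in its titles (C54B for ATRX KO, C39E for ATRX WT), so genotype and culture line cannot be told apart. Where values of single libraries are listed, replicates 1 to 3 come in that order. P-values measure only the spread between libraries of a line, which may be technical.

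Hedgehog ligands bind Patched 1, a membrane protein that otherwise keeps Smoothened inactive, and Boc, Cdon and Gas1 help the ligand to bind. Active Smoothened, in the primary cilium, leads to release of the GLI factors from Sufu. Gli2 acts mainly as an activator, Gli3 mainly as a repressor when the signal is absent, and Gli1 is an activator whose own transcription is a standard readout of the pathway, as is that of Ptch1. In the brain the pathway maintains neural stem cells and drives the growth of cerebellar granule cell precursors, and in connective tissues Gli1 marks mesenchymal cells around vessels.

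The GLI factors were higher in ATRX KO, while Ptch1 and Cdon were lower. Gli3 and Gli2 stood at 9.73-fold and 6.37-fold of their ATRX WT means in RPKM (reads per gene length in kilobases, scaled to library size). Cdon held 17.2% and Ptch1 54.6% of the ATRX WT level, and Boc stood at 1.81-fold. Smo, Sufu and Gas1, with levels of 10.3 to 31.2 RPKM in both genotypes, differed by at most 0.19 on the log2 scale. The words rose and fell are used below for ATRX KO where the adjusted p in limma, taken over the 12201 genes tested, was under 0.05. Of the 9 genes 4 rose, 3 fell, Gas1 gave no call, and Gli1 did not pass the filter on low values, which asks for 3 or more libraries at log2 RPKM 0 or higher. Calls were the rule between these lines: 89.5% of all tested genes passed, 43.6% as rises and 45.9% as falls, so 7 calls among 8 tested genes are near that share. The genotypes did not overlap in 7 of the 8 tested genes and in 90.5% of all tested genes. Gli2 and Gli3 passed the filter through ATRX KO alone and Cdon through ATRX WT alone, so those 3 had to differ. The median log2 fold change was 0.05 over the 8 tested genes and -0.02 over all tested genes, and 19.4% of all tested genes changed by log2 2 or more in size, as Gli2, Gli3 and Cdon did.

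**Figure D1:**
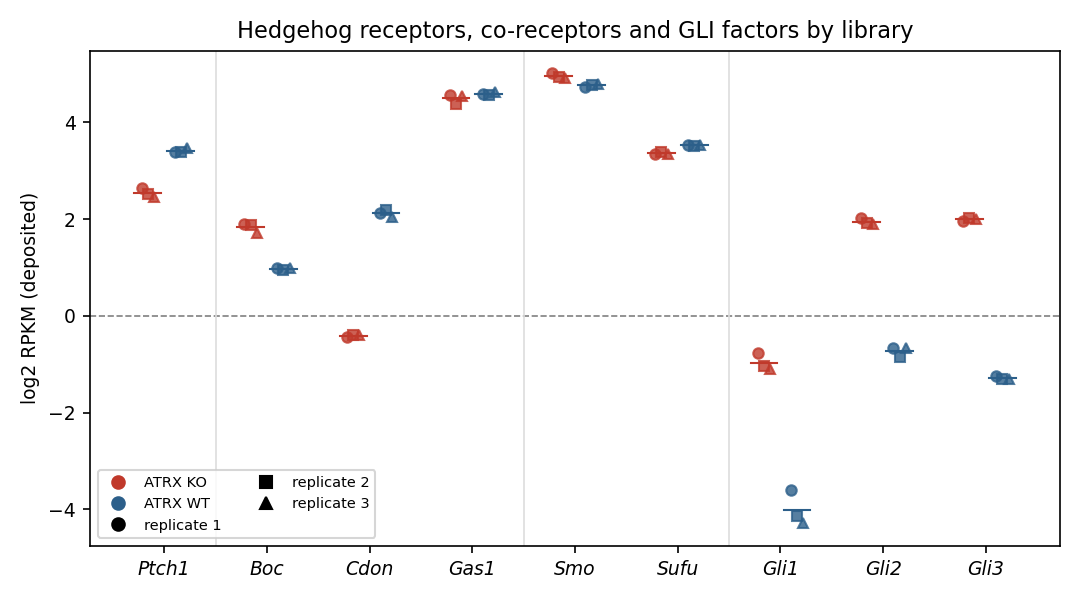
Deposited log2 RPKM of the 9 genes in each library (ATRX KO red, ATRX WT blue, symbols give the replicate, short lines the mean of 3 libraries, dashed line the filter at log2 RPKM 0). Gli1, Gli2 and Gli3 stand higher in every ATRX KO library, Cdon and Ptch1 lower, and the Gas1 values of the genotypes overlap.

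Depth and the wider contrast set the frame for these values. ATRX KO libraries held 22177228 to 32477269 reads and ATRX WT libraries 34966108 to 38039847. Atrx itself fell (14.1 to 17.1 against 21.6 to 22.7 RPKM, log2 fold change -0.48, SE 0.068, limma adjusted p = 0.00013), with its transcript present in every library. Markers of the tissue on the label were high in ATRX WT and mostly low in ATRX KO. The 10 neural stem and neurosphere markers summed to 4889 to 5010 RPKM in ATRX WT and 1122 to 1129 RPKM in ATRX KO, where 9 fell and 1 rose. Fabp7, a radial glia gene among them, went from 247523 reads to 4. Vim made up most of the ATRX KO sum, with a mean of 1008 RPKM there against 1868 RPKM in ATRX WT. The marker that rose was Sox9, from 31.0 to 62.6 RPKM. All 7 tested neuronal markers fell, as did 4 of 6 of the oligodendrocyte lineage, 3 of 4 of astrocytes and 4 of 4 of ependyma. The exceptions rose, in the oligodendrocyte list Pdgfra (3.41 to 31.5 RPKM) and Cspg4 (2.52 to 10.5 RPKM). In the astrocyte list Gja1 rose from 15.4 to 144 RPKM, while Aldh1l1, the most abundant of that list in ATRX WT, fell from 191 to 0.173 RPKM. Olig1, Bcas1 and Dcx had 0 reads in ATRX KO. The 12 fibroblast and mesenchymal markers summed to 1814 to 1969 RPKM in ATRX KO against 43.5 to 46.3 RPKM in ATRX WT, and all 10 tested rose, 8 of them having passed the filter through ATRX KO alone. Col3a1, a collagen gene among them, had 310130 reads against 29, while Thy1, of the same list and not tested, stood at 0.656 against 1.12 RPKM. Of the neuronal and ependymal markers 5 of 7 and 4 of 4 passed the filter through 1 genotype alone, so those too had to differ. The same held for 5 of 10 neural stem, 3 of 6 oligodendrocyte and 2 of 4 astrocyte markers. Pericyte markers gave 2 rises and 1 fall. Their sum was 5.11 to 5.52 RPKM in ATRX KO against 21.9 to 22.2 in ATRX WT. It was lower through Rgs5 alone, the marker that fell, from 19.2 to 0.0753 RPKM. The tested endothelial (2 of 7 listed) and microglial (2 of 9 listed) markers rose. Most of the others on those lists were not in the table, and Kdr, endothelial and not tested, stood at 0.253 against 0.304 RPKM. Through 1 genotype alone passed 2 of 3 pericyte, 2 of 2 endothelial and 1 of 2 microglial markers. The Hedgehog values below were measured beside these markers, whose part in any difference was not tested. In bulk RNA, fewer cells of a type and less RNA per cell cannot be told apart.

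Gli3, a GLI factor that is cut to a repressor form when no ligand is present (ENSMUSG00000021318.15, chromosome 13, 15463235 to 15730026, GRCm38), had the largest rise among the tested members. With ATRX KO it measured 3.91, 4.04 and 4.04 RPKM, against 0.422, 0.408 and 0.402 RPKM with ATRX WT. The libraries of a genotype were close together and the groups far apart, with 2588 reads in ATRX KO against 400 in ATRX WT. The log2 fold change was 3.28 (SE 0.079, limma adjusted p = 7.9e-10). Gli2, the main activator of Hedgehog target genes (ENSMUSG00000048402.14, chromosome 1, 118834132 to 119053619), measured 4.06, 3.77 and 3.76 RPKM with ATRX KO, against 0.629, 0.556 and 0.633 RPKM with ATRX WT. Its groups did not overlap either, and the log2 fold change was 2.67 (SE 0.088, limma adjusted p = 5.4e-09). After quantile normalization the log2 fold changes were 4.45 for Gli3 and 3.59 for Gli2. The mean of each gene in ATRX WT lay under the filter, at log2 RPKM -1.28 and -0.72.

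Gli1, the activator that Hedgehog signalling itself induces (ENSMUSG00000025407.7, chromosome 10, 127329882 to 127341974), was the lowest of the 9 genes in both genotypes. Its reads numbered 63, 45 and 34 with ATRX KO against 9, 6 and 5 with ATRX WT, that is 0.585, 0.486 and 0.464 against 0.0823, 0.0572 and 0.0513 RPKM. Every ATRX KO library was above every ATRX WT library, although no library reached log2 RPKM 0. Per library size, the summed reads stood in a ratio of 10.8 (95% interval 6.76 to 18.3, exact, counting error only). With the filter on low values left out, limma gave a log2 fold change of 3.03 (SE 0.211, adjusted p = 1e-06). The deposited values include a prior count of 2 reads on average, and the log2 of the read ratio, without it, was 3.44.

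The summed level of the 3 GLI genes and their shares in it were compared within each library. Summed over Gli1, Gli2 and Gli3 the level was 8.37 ± 0.162 RPKM in ATRX KO against 1.08 ± 0.0564 RPKM in ATRX WT (SD, n = 3 each). The two-sided exact permutation p was 0.1, the smallest that 3 against 3 libraries allow. With each of the genes higher in every ATRX KO library, the sum could give no other p. Gli3 made up 45.7%, 48.7% and 48.9% of that sum with ATRX KO, against 37.2%, 39.9% and 37.0% with ATRX WT. Gli2 made up 47.5%, 45.4% and 45.5% in ATRX KO against 55.5%, 54.5% and 58.3% in ATRX WT. Both shares were apart between the genotypes in all libraries, each at the exact permutation p of 0.1. The share of Gli1 was 6.11% ± 0.647 in ATRX KO against 5.86% ± 1.30 in ATRX WT, within the spread between libraries (exact permutation p = 0.8). Without the prior count it was 5.93% against 4.44% (exact permutation p = 0.3), and leaving out single libraries moved the difference between -0.32 (without ATRX WT replicate 3) and 0.95 percentage points (without ATRX WT replicate 1). Gli3 transcripts thus stood level with those of Gli2 in ATRX KO, with a ratio of 0.961 to 1.07, and below them in ATRX WT, with 0.635 to 0.733.

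**Figure D2:**
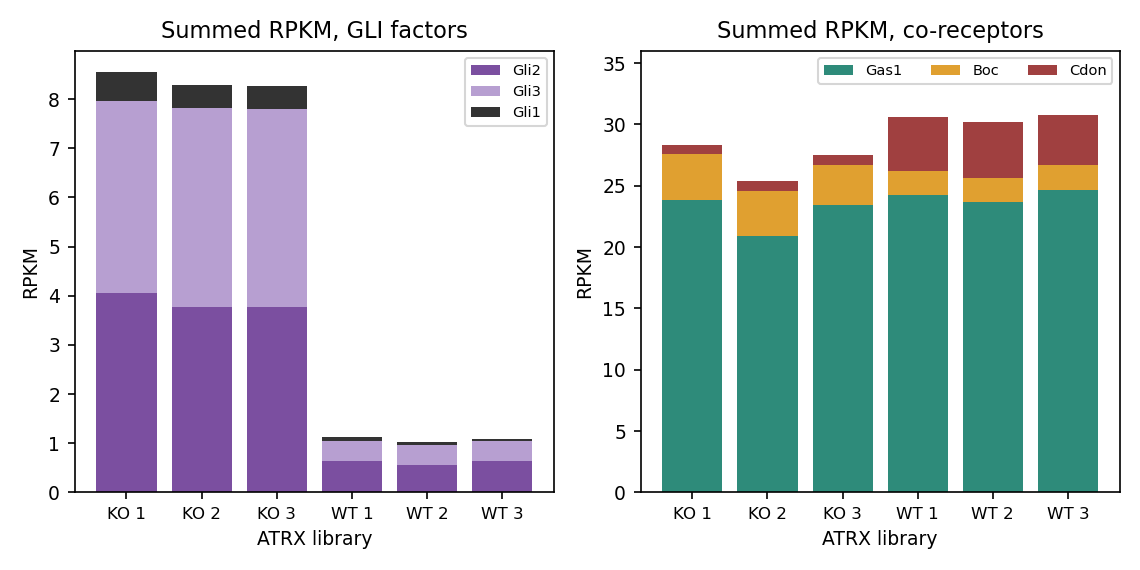
Stacked RPKM of the GLI genes (left) and the co-receptor genes (right) in each library. The GLI sum is 8.26 to 8.56 RPKM in ATRX KO against 1.02 to 1.13 in ATRX WT, while the co-receptor sums are 25.4 to 28.3 and 30.2 to 30.8 RPKM with Boc and Cdon in opposite proportion.

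Since Gli2 and Gli3 moved together, their promoters are shown with that of Ptch1, a classical GLI target that moved the other way. Each runs from 250 bases before to 50 bases after the start of the RefSeq gene (GRCm38.p6), 5′ to 3′ on the gene's strand, with matches to the GC box GGGCGG, on either strand, in capitals.
Gli2 (chr1:119053570-119053869, minus strand): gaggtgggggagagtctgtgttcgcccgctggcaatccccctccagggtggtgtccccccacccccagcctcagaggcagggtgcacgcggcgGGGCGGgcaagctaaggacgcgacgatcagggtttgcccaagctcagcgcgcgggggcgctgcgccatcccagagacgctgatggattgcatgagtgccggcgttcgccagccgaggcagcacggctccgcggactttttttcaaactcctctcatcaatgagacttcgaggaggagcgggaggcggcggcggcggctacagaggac
Gli3 (chr13:15463473-15463772, plus strand): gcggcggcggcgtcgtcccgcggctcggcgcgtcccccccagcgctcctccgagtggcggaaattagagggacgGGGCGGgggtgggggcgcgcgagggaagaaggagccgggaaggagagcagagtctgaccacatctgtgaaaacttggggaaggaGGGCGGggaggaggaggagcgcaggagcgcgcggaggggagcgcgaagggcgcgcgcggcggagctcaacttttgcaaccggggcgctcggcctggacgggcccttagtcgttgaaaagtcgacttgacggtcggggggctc
Ptch1 (chr13:63565686-63565985, minus strand): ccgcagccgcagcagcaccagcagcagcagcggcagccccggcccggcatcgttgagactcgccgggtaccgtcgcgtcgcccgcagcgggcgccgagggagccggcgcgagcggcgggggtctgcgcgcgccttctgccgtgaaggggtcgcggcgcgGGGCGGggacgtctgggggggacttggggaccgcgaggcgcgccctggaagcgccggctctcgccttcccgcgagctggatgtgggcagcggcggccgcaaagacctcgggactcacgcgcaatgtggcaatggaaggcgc

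The GC box occurs once in the Gli2 window, once in that of Ptch1 and at 2 places in that of Gli3, and in 35.7% of the 32851 RefSeq promoters of this length. The 9-letter GLI consensus GACCACCCA, on either strand, was in none of the promoters of the 7 members with an entry and in 0.253% of all promoters. CpG pairs numbered 28 in the Gli2 window, 39 in that of Gli3 and 47 in that of Ptch1, against a median of 7 over all promoters. The windows of Smo and Gas1 held 17 each. Among the other members that fell, Sufu had 12 and Cdon 3, in a window whose start lies 30948 bases inside the GENCODE gene. The RefSeq start of Gli2 is also its gene start in GENCODE M21, while those of Gli3 and Ptch1 lie 488 and 7863 bases inside the GENCODE gene. Boc and Gli1 have no entry. Such matches describe the letters only.

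Ptch1, the ligand receptor that holds Smoothened in check (ENSMUSG00000021466.12, chromosome 13, 63508328 to 63573598), fell. Its level was 6.25, 5.76 and 5.51 RPKM with ATRX KO, against 10.5, 10.5 and 11.1 RPKM with ATRX WT. All ATRX KO libraries lay below all ATRX WT libraries, and the log2 fold change was -0.88 (SE 0.057, limma adjusted p = 5.5e-07). Ptch1 and Gli1, both used as readouts of the pathway, thus differed in opposite directions. Another readout, Hhip, which encodes a membrane protein that binds and sequesters Hedgehog ligands, rose to 3.75 ± 0.189 RPKM from 0.288 ± 0.0243 RPKM in ATRX WT (SD, n = 3 each, log2 fold change 3.71). Of these 3 genes Ptch1 was the most abundant per length in both genotypes.

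The co-receptors moved apart from each other. Cdon, an immunoglobulin-family protein that binds Hedgehog ligands together with Patched 1 (ENSMUSG00000038119.15, chromosome 9, 35421128 to 35507652), measured 0.737, 0.766 and 0.757 RPKM with ATRX KO, against 4.40, 4.59 and 4.14 RPKM with ATRX WT. The groups were far apart, and the log2 fold change was -2.54 (SE 0.075, limma adjusted p = 2.9e-09), the largest fall among the tested members. Its paralogue Boc (ENSMUSG00000022687.12, chromosome 16, 44485049 to 44558897) went the other way, with 3.71, 3.66 and 3.30 RPKM with ATRX KO, against 1.98, 1.92 and 1.98 RPKM with ATRX WT. That rise had a log2 fold change of 0.86 (SE 0.071, limma adjusted p = 3.1e-06), again without overlap. The ratio of Boc to Cdon within a library was 4.36 to 5.03 in ATRX KO against 0.419 to 0.480 in ATRX WT. The more abundant of these paralogues thus differed between the lines. Since Boc was higher and Cdon lower in every ATRX KO library, the exact permutation p of the ratio had to be 0.1, the smallest possible.

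Gas1, a lipid-anchored co-receptor (ENSMUSG00000052957.8, chromosome 13, 60174405 to 60177365), was the most abundant co-receptor gene in all 6 libraries. Its level was 23.9, 20.9 and 23.4 RPKM with ATRX KO, against 24.2, 23.7 and 24.7 RPKM with ATRX WT. The groups overlapped, through ATRX KO replicate 1, and the log2 difference was -0.09 (95% interval -0.21 to 0.02, limma adjusted p = 0.11). Gas1 passed without ATRX KO replicate 1 (-0.13, adjusted p = 0.038), after quantile normalization (-0.20, adjusted p = 0.0035) and with scaling by reads in the table (-0.29, adjusted p = 0.0005), in a range of 0.0005 to 0.38 over the alternatives. Gas1 made up 82.5% to 85.2% of the co-receptor sum in ATRX KO against 78.4% to 80.1% in ATRX WT, and the co-receptor sum was 25.4 to 28.3 against 30.2 to 30.8 RPKM.

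Smo and Sufu, the steps between receptor and GLI factors, differed little. Smo, the receptor-like protein that passes the signal on (ENSMUSG00000001761.7, chromosome 6, 29735503 to 29761365), was the most abundant of the 9 genes, with 32.4, 30.7 and 30.4 RPKM for ATRX KO, against 26.7, 27.2 and 27.7 RPKM for ATRX WT. The groups did not overlap and Smo rose by a log2 fold change of 0.19 (SE 0.034, limma adjusted p = 0.00055). Scaling by the reads in the table and not by the authors' library sizes moved the median of all tested genes by -0.20 and Smo to a log2 difference of -0.0021 (adjusted p = 0.95, in a range from 0.00054 over the alternatives). Relative to the median of all genes Smo was 0.22 higher under either scaling. Sufu, which binds and restrains GLI proteins (ENSMUSG00000025231.17, chromosome 19, 46396896 to 46488804), measured 10.3, 10.5 and 10.2 RPKM with ATRX KO, against 11.7, 11.5 and 11.6 RPKM with ATRX WT. Sufu fell without overlap between the groups (log2 fold change -0.17, SE 0.036, limma adjusted p = 0.0016). Sufu RPKM per summed GLI RPKM was 1.20 to 1.26 for ATRX KO, against 10.3 to 11.2 for ATRX WT. Smo per Ptch1 was 5.34 ± 0.165 against 2.54 ± 0.0498 (SD, n = 3 each). In each ratio numerator and denominator differed in opposite directions without overlap, so the exact permutation p had to be 0.1.

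**Figure D3:**
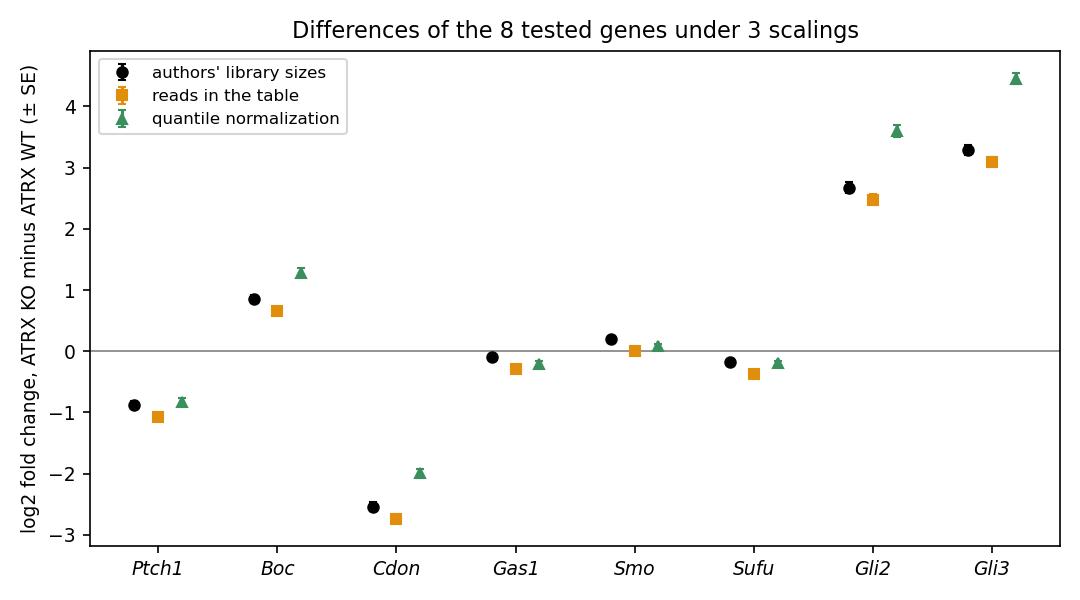
Log2 fold changes (ATRX KO minus ATRX WT, bars ± SE from limma, 3 libraries per genotype) of the 8 tested genes under 3 scalings. Gli2, Gli3 and Boc lie above 0 and Cdon, Ptch1 and Sufu below 0 under each, while Smo moves from 0.19 to -0.0021 with scaling by reads in the table.

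Ordered by level per length, Smo, Gas1, Sufu and Ptch1 were the highest of the 9 genes, in that order, in both genotypes. Below them the order was Gli3, Gli2, Boc, Cdon and Gli1 in ATRX KO and Cdon, Boc, Gli2, Gli3 and Gli1 in ATRX WT. Within ATRX KO the libraries of Gli3 and Gli2 overlapped, so those neighbours were not apart beyond their spread, while all other neighbours in either order were apart in all 3 libraries. Among the tested genes, the 3 libraries of a genotype spanned 0.02 to 0.19 on the log2 scale. The genes with the smallest Euclidean distance to Gli3 over the 6 libraries on log2 RPKM were Xaf1 (0.309), Cygb (0.354) and C1ra (0.382). Nearest to Cdon were Hexim2 (0.307), Inpp4b (0.344) and AI504432 (0.351).

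The members lie on 7 chromosomes, and the medians of the genes beside them were smaller in size than the larger member differences. Tested genes that start within 2 Mb of Gli3 numbered 9, of which 7 rose and 1 fell, with a median log2 fold change of 0.60 (0.94 within 1 Mb and 0.35 within 5 Mb) against 3.28 for Gli3. Beside Gli2 6 of 14 rose and 8 fell, with a median of -0.56, opposite to Gli2, but within 1 Mb the median of 7 genes was 0.27. Beside Cdon 7 of 21 rose and 14 fell, with a median of -0.59 against -2.54. Around Boc the median of 15 genes was 0.01 (0.27 within 1 Mb and -0.12 within 5 Mb), and around Ptch1 that of 16 genes was -0.14, though it was 0.49 over the 11 genes within 1 Mb. Within 2 Mb of Smo, Sufu and Gas1, whose own differences were small, the medians were 0.20, -0.26 and -0.16. Beside Gli1, 68 genes had a median of 0.13. Ptch1 and Gas1, which lie 3.33 Mb apart on chromosome 13, differed in their calls. No gene that overlaps a member in GENCODE M21, on either strand, was among the rows of the table.

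**Figure D4:**
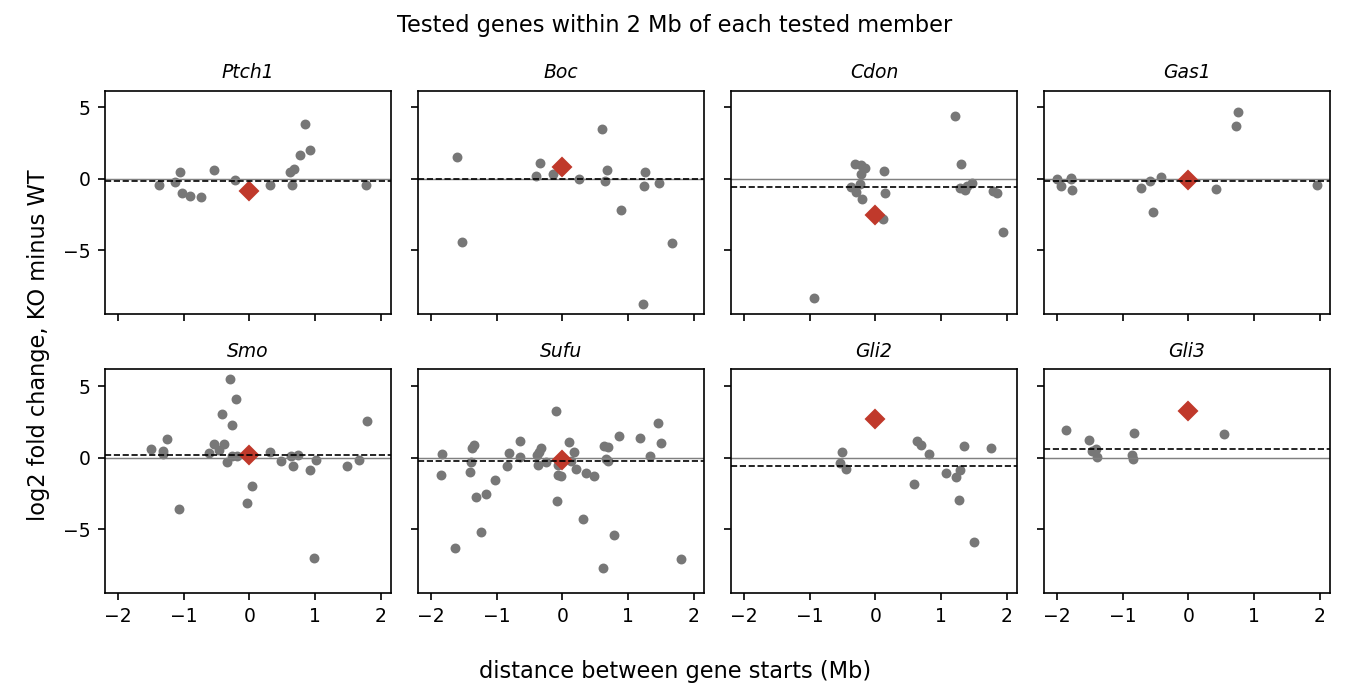
Log2 fold changes of tested genes (grey) within 2 Mb of each tested member (red diamond), by distance between gene starts in Mb, with the median of the neighbours dashed. Gli2, Gli3 and Cdon stand away from the median of their neighbours (-0.56, 0.60 and -0.59), while Smo, Sufu and Gas1 lie near theirs.

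Upstream of the receptor, the tested genes that make or release the ligand rose. The ligand genes Shh, Ihh and Dhh are not analysed here. Hhat, the enzyme that attaches palmitate to Hedgehog ligands, stood at 16.4 ± 0.383 RPKM with ATRX KO, against 0.198 ± 0.0609 RPKM with ATRX WT (SD, n = 3 each). These groups were far apart, with 3593 against 59 reads, and the log2 fold change was 6.42 (SE 0.188, limma adjusted p = 2.7e-09). Disp1, the transporter that releases the lipid-modified ligand, rose from 2.08 ± 0.0690 to 5.26 ± 0.160 RPKM (log2 fold change 1.34). Scube1, a secreted protein of a family that helps that release, rose by 1.74. All 3 tested genes of that list of 8 rose, 2 of them having passed the filter through ATRX KO alone, against 43.6% of all tested genes. Scube3 was below the filter, with 97 against 52 reads. Gpc5, a glypican that binds Hedgehog ligands, fell from 462 reads to 2, a ratio of 151 per library size (95% interval 41.7 to 1254, counting error only). Gpc5 passed the filter through ATRX WT alone and Hhip through ATRX KO alone, so both had to differ.

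Regulators of Smoothened and of the GLI proteins went both ways. Of 14 tested Smoothened regulators 5 rose and 9 fell, with a median log2 fold change of -0.45 against -0.02 over all tested genes, of which 43.6% rose and 45.9% fell. Arl13b, a small GTPase of the cilium, rose from 3.18 ± 0.120 to 8.73 ± 0.335 RPKM (log2 fold change 1.46), and Evc2 and Efcab7, which work with Smoothened at the base of the cilium, rose by 0.69 and 0.61. Arrb1, a beta-arrestin, fell from 7.75 ± 0.150 to 2.24 ± 0.157 RPKM (-1.79). Tulp3, which brings inhibitory receptors into the cilium, fell by 1.13, and Iqce, another protein of the Evc complex, by 0.96. Of 18 tested GLI regulators 10 rose and 8 fell, near those shares, with a median of 0.26. Prkacb, a catalytic subunit of protein kinase A, which marks GLI proteins for cleavage, rose from 47.8 ± 0.787 to 138 ± 5.14 RPKM (1.53), while Prkaca, the other catalytic subunit of the list, fell from 59.1 ± 0.492 to 42.8 ± 1.03 RPKM (-0.46). Gsk3b, a kinase that acts after them, rose by 0.75. The zinc finger gene Zic1 rose by 0.77. Btrc, the ligase subunit that recognises the marked GLI proteins, fell from 12.4 ± 0.129 to 4.25 ± 0.0303 RPKM (-1.54). Stk36, a kinase related to the fly gene fused, fell by 1.04 and Prkar1a, a regulatory subunit of protein kinase A, by 0.49. Stk36 passed the filter through ATRX WT alone, so it had to differ.

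Genes of the primary cilium, the organelle in which the signal is relayed, were mostly lower. Among 46 tested there were 6 rises, 34 falls and 6 without a call (median log2 fold change -0.46), where 45.9% of all tested genes fell. Falls numbered 39 with scaling by reads in the table and 33 after quantile normalization. The largest falls were Mks1, a gene of the ciliary gate, from 4.41 ± 0.0274 to 1.02 ± 0.0637 RPKM (log2 fold change -2.12), and Bbs7 and Bbs9, subunits of the complex that carries membrane proteins in the cilium (-1.66 and -1.62). B9d1, which acts at the same gate as Mks1, measured 9.89, 9.23 and 9.04 RPKM with ATRX KO, against 0.554, 0.549 and 0.335 RPKM with ATRX WT. As the only cilium gene of the list that passed the filter through 1 genotype alone, B9d1 had to differ. It rose by 4.33 (SE 0.181, limma adjusted p = 2.7e-08), and Ift57 and Ift43, of the transport trains, by 1.34 and 0.90.

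Reported targets of Hedgehog signalling, collected from several tissues, split between the lines. Of 18 tested targets 10 rose, 7 fell and only Bcl2 (log2 difference 0.08, adjusted p = 0.20) missed the threshold, where 89.5% of all tested genes were called. Their median was 1.13, and 10 of the 18 passed the filter through 1 genotype alone, so that they had to differ. Foxf2, a forkhead factor of gut and craniofacial mesenchyme, rose from 0.0440 ± 0.00642 to 5.60 ± 0.327 RPKM, or from 5 reads to 1018. Snai1, a repressor of epithelial genes, rose from 0.420 ± 0.0483 to 33.5 ± 2.34 RPKM (6.32), and Grem1, a secreted BMP antagonist, from 0.151 ± 0.0214 to 9.12 ± 0.760 RPKM (5.92). Olig2, a target in the ventral neural tube and a factor of the oligodendrocyte lineage, fell from 24851 reads to 2, a ratio of 8143 per library size (95% interval 2254 to 67241, counting error only). Foxa2, the floor plate factor, had 0 reads against 338, at least 73.8-fold lower when set against 3 reads over the group. Sfrp1, a secreted Wnt inhibitor, measured 0.0368, 0.119 and 0.124 RPKM with ATRX KO, against 3.67, 3.74 and 3.68 RPKM with ATRX WT (log2 fold change -5.50, SE 0.415). The promoters of 15 of the 24 listed targets were at hand, 21 windows in all, and 0 of them held the 9-letter GLI consensus.

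**Figure D5:**
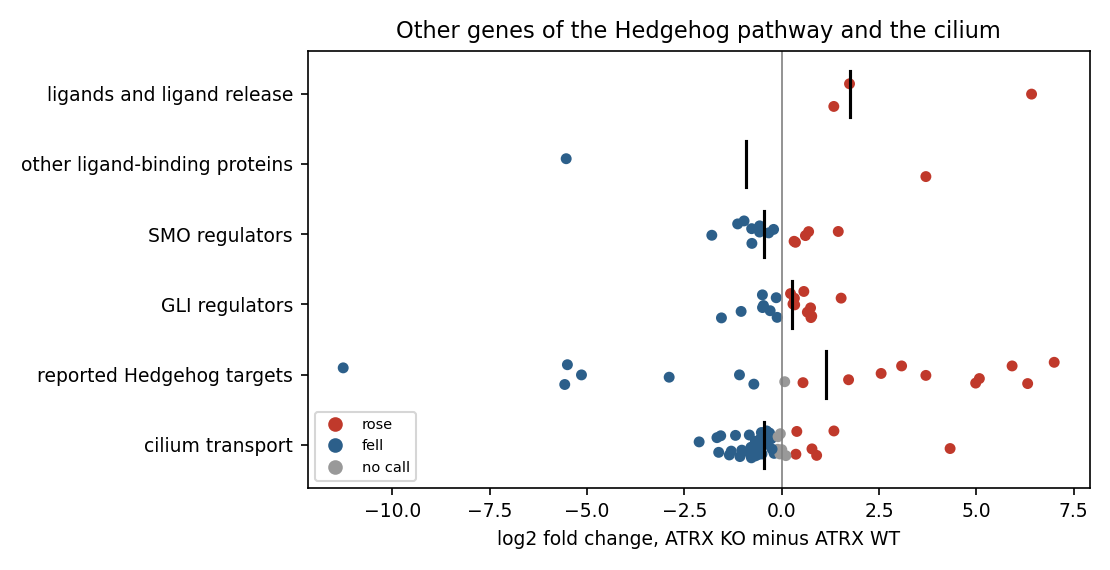
Log2 fold changes (ATRX KO minus ATRX WT) of the tested genes in 6 lists of the Hedgehog pathway and the cilium, coloured by call, with black lines at the medians. Cilium genes lie mostly below 0 (34 of 46 fell), and the targets spread from Olig2 on the left to Foxf2 on the right.

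Over the 6 lists, with genes that stand in more than 1 list counted once, 100 of 113 genes were tested, and 34 rose, 59 fell and 7 gave no call, where 43.6% of all tested genes rose and 45.9% fell. Of the 59 falls 34 were in the cilium list.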

How the data were processed

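A single table of log2 RPKM values (13069 genes, 6 libraries) was deposited by the authors. The submitters' processing notes name STAR 2.5.3a as well as HTSeq 0.11.2, edgeR 3.20.9, Trim Galore and FastQC, with the builds mm9 and mm10, and per the labels the mRNA libraries were stranded. The strand setting of the counting and the filter behind the table are not given in the sources used here. Whole reads were recovered from the steps of the deposited log2 values for 100% of genes (tolerance 0.0001 reads) and gave the depths, read ratios and rescaled values. RPKM in the text is 2 to the power of the deposited value, prior count included. The fit used limma 3.58.1 (R 4.3.3) on the 12201 genes that reached log2 RPKM 0 in 3 or more libraries, leaving out 868 (empirical Bayes with a trend, 4 residual degrees of freedom, two-sided, Benjamini-Hochberg over all tested genes). The recovery was tested on reads simulated at the rates of each genotype. The fit was tested on simulated data in which few genes changed, unlike the 89.5% called here. Alternatives were other scalings, filters and priors, no trend, a replicate block and leaving out each library. Coordinates are from GENCODE M21 (GRCm38) and promoters from RefSeq. Named are all 9 genes, Atrx and, in each pathway list, up to 3 of the largest rises and falls. Also named are some of the most abundant markers, at most 2 per list, and the 3 genes nearest to the members with the largest rise and fall. Hhip, Scube3, Prkaca, Thy1, Bcl2, Kdr, Sox9, Pdgfra, Cspg4 and Gja1, and the markers at 0 reads, were named after their values were seen. The members and lists were chosen with earlier results of these data known.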

Additional observations from a re-analysis of the deposited data

How the results depend on the processing

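Ptch1, Gli2, Gli3, Sufu, Boc and Cdon kept their direction and call under all 13 alternatives run for each. Smo had a log2 difference of -0.0021 (adjusted p = 0.95) when scaled by the reads of the table. Gas1 had -0.29 under that scaling and -0.20 after quantile normalization. Without single libraries its difference ran from -0.13 to -0.034, passing without ATRX KO replicate 1. Over all tested genes the scaling by reads gave 4388 rises and 6689 falls, against 5321 and 5604, and among the GLI regulators 8 and 8, against 10 and 8. Same-numbered libraries did not deviate together (correlations -0.045, 0.051 and -0.038). With the replicate block 5287 genes rose and 5564 fell, and no call of a member changed. With 5 to 9 reads per ATRX WT library, the level of Gli1 there is the least precise of the 9.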
